A study of Mus musculus with 20 samples.

Results

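The transcripts described here are 33 genes known from adipocytes, the fat-storing cells of the dermis and subcutis, here measured in RNA sequenced from whole ear pinnae of mice. The 33 genes are a named list, drawn up with earlier results of these data known, and all 33 were found among the 16669 genes of the deposited table. One of them, Tusc5, is named Trarg1 in the GENCODE annotation used to match identifiers. The ears had been injected into the skin with PBS or with 1 of 3 cytokines, IL-4, IL-13 or IL-31, and there were 5 samples in each of the 4 groups. Each cytokine was given to the right ear in PBS as 10 µl of a 0.1 µg/µl solution, and the controls received PBS in the right ear. The labels give no strain, genotype, age or time of harvest, and do not say whether each sample came from its own mouse. P-values therefore measure the spread between these samples, which may be technical. Both IL-4 and IL-13 belong to the type 2 cytokines and share a receptor chain, and IL-31 is a cytokine best known for itch.

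White adipocytes store triglyceride in a lipid droplet coated by perilipins and CIDE proteins. Pparg and Cebpa are the transcription factors that drive and hold the adipocyte state, lipoprotein lipase and Cd36 bring fatty acids in, and the lipases Pnpla2, Lipe and Mgll release them. Mature adipocytes also secrete hormones such as adiponectin (Adipoq) and leptin (Lep). Several genes of the set are not restricted to fat: the epidermis and sebaceous glands make lipid of their own with Fasn, Dgat2 and Cebpa, and skeletal muscle uses Slc2a4, Car3 and Gpd1.

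The sequences just before the starts of 6 of these genes are shown so that members that rose, fell or did not pass can be compared letter by letter. RefSeq promoters (GRCm38.p6) were held for 25 of the 33 members and not for Fabp4, Car3, Lpl, Dgat2, Gpd1, Slc2a4, Adrb3 and Tusc5. Cebpa, Mlxipl, Pnpla2 and Pnpla3 had the smallest adjusted p-values against PBS among members with an entry, and Adipoq and Lep, hormones restricted to fat, were added after the motifs had been counted. Each run is the 250 bases before the annotated start, 5′ to 3′ on the gene's strand, and capitals mark a searched motif.
Adipoq (chr16:23146286-23146535, plus strand): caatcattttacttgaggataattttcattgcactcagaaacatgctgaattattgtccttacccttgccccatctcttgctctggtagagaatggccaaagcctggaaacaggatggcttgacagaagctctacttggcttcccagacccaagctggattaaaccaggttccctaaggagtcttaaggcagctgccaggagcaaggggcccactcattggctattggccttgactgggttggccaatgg
Lep (chr6:29059971-29060220, plus strand): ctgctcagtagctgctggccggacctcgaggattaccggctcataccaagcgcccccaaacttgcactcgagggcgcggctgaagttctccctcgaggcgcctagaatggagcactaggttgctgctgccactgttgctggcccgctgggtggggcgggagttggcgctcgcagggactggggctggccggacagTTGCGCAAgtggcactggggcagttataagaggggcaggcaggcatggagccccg
Cebpa (chr7:35119043-35119292, plus strand): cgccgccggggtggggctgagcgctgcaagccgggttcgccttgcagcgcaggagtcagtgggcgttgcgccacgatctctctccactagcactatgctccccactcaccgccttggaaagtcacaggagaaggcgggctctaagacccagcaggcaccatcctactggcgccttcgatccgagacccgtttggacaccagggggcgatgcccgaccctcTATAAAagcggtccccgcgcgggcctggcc
Mlxipl (chr5:135089640-135089889, plus strand): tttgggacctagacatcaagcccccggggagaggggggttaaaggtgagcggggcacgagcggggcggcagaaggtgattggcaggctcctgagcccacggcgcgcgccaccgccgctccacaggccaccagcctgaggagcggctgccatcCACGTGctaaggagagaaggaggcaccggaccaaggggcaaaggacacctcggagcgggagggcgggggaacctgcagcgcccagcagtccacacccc
Pnpla2 (chr7:141454938-141455187, plus strand): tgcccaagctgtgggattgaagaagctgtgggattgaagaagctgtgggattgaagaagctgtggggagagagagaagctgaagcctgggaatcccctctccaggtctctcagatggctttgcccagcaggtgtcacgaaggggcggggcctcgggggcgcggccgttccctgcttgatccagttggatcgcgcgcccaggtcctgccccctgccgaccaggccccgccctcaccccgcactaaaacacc
Pnpla3 (chr15:84167566-84167815, plus strand): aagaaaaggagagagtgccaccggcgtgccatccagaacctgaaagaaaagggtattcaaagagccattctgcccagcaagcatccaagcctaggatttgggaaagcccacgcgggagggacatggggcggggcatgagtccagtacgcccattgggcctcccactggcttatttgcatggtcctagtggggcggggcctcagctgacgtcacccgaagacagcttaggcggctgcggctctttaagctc

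The motifs searched, on both strands, were the nuclear receptor half-site AGGTCA, its direct repeat with 1 base between the copies (DR1), the C/EBP palindrome TTGCGCAA, the E-box CACGTG and the TATA box TATAAA. The half-site is contained in its direct repeat, so those searches overlap. In the runs above, the C/EBP palindrome of Lep starts at -55 from the annotated start, the E-box of Mlxipl at -98 and the TATA box of Cebpa at -30. Adipoq, Pnpla2 and Pnpla3 held none of these letters in this window. Among the 25 members, the half-site was in 5 (20%), against 14.0% of all 32851 promoters of the same length. The E-box was in 3 (12.0%, against 6.02%), the TATA box in 2 (8.0%, against 12.4%) and the C/EBP palindrome in 1 (4.0%, against 0.164%). The direct repeat was in 0 members and in 0.0335% of all promoters. The entries of Acaca, Cd36, Acacb and Lipe lie 65766, 52905, 18983 and 2723 bases from the GENCODE gene start. Among the matches counted are a half-site of Cd36, a TATA box of Acacb and an E-box of Lipe. Of 32 entries checked for the members, 26 had the bases after their start in a transcript of the gene. A match describes letters and not a bound site.

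Library sizes, as read from the table, were 6.1 to 23.73 M reads, and 3 reads correspond to 0.126 to 0.491 CPM, below which differences were not detectable. Values are log2 CPM, that is reads scaled to library size and logged after an offset of 0.1556 CPM, so that fold changes of low genes are understated. PBS libraries 1, 2 and 3 stood apart from the other 17 in transcripts of the epidermis. The 6 epidermal markers (Krt5, Krt14, Krt1, Krt10, Lor and Flg2) summed to 24200, 21100 and 17900 CPM there, to 41300 and 45300 CPM in PBS libraries 4 and 5, and to 35900 to 76300 CPM in the cytokine libraries. IL-31 library 3 had the lowest muscle sum of its group, 1860 CPM against 6110 to 8620 CPM. Calls of single members and of the further lipid genes named against PBS are given with and without these PBS libraries. Counts over the marker lists of other tissues are given only with them.

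Fat was present in every library. The 9 adipocyte markers Adipoq, Plin1, Cidec, Lep, Adig, Retn, Cfd, Fabp4 and Car3, which are all members, summed to 386, 1190, 837, 601 and 384 CPM in PBS libraries 1 to 5. The sums were 497, 300, 335, 158 and 195 CPM in IL-4, 185, 426, 117, 208 and 235 CPM in IL-13, and 487, 609, 238, 380 and 616 CPM in IL-31. Every group overlapped PBS, where the highest library held several times the sum of the lowest. Car3, which muscle also uses, supplied 43.2 to 67.3% of the PBS sums and 31.5 to 64.4% of the others. The other 8 markers summed to 126 to 566 CPM in PBS, 72.5 to 341 CPM in IL-4, 56.3 to 202 CPM in IL-13 and 130 to 299 CPM in IL-31, and each cytokine group still overlapped PBS. Of 7 brown fat markers, Ucp1 and Zic1 were not analysed here. Among the other 5, Cidea (42.2 to 170 CPM) and Elovl3 (74.4 to 449 CPM), which sebaceous glands also express, were the most abundant, and Ppargc1a lay at 1.06 to 11.6 CPM. In a whole-ear sample, fewer fat cells, less RNA per fat cell and a larger share of RNA from other tissue cannot be told apart.

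Per kilobase of annotated exon, the mean level of members in PBS ranged from 1.01 CPM per kb for Aqp7, the glycerol channel, to 160 CPM per kb for Mgll, the monoacylglycerol lipase. Car3 (127 CPM per kb), G0s2 (99.9), Cebpa (73.0), Dgat2 (68.5) and Cfd (51.8) followed Mgll. The SD over the 5 PBS libraries was 102 CPM per kb for Mgll and 53.8 for Car3, so the order at the top lies within the spread. Adipoq stood at 20.9 ± 15.4 CPM per kb and Pparg at 6.71 ± 3.16 (SD, n = 5).

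**Figure D1:**
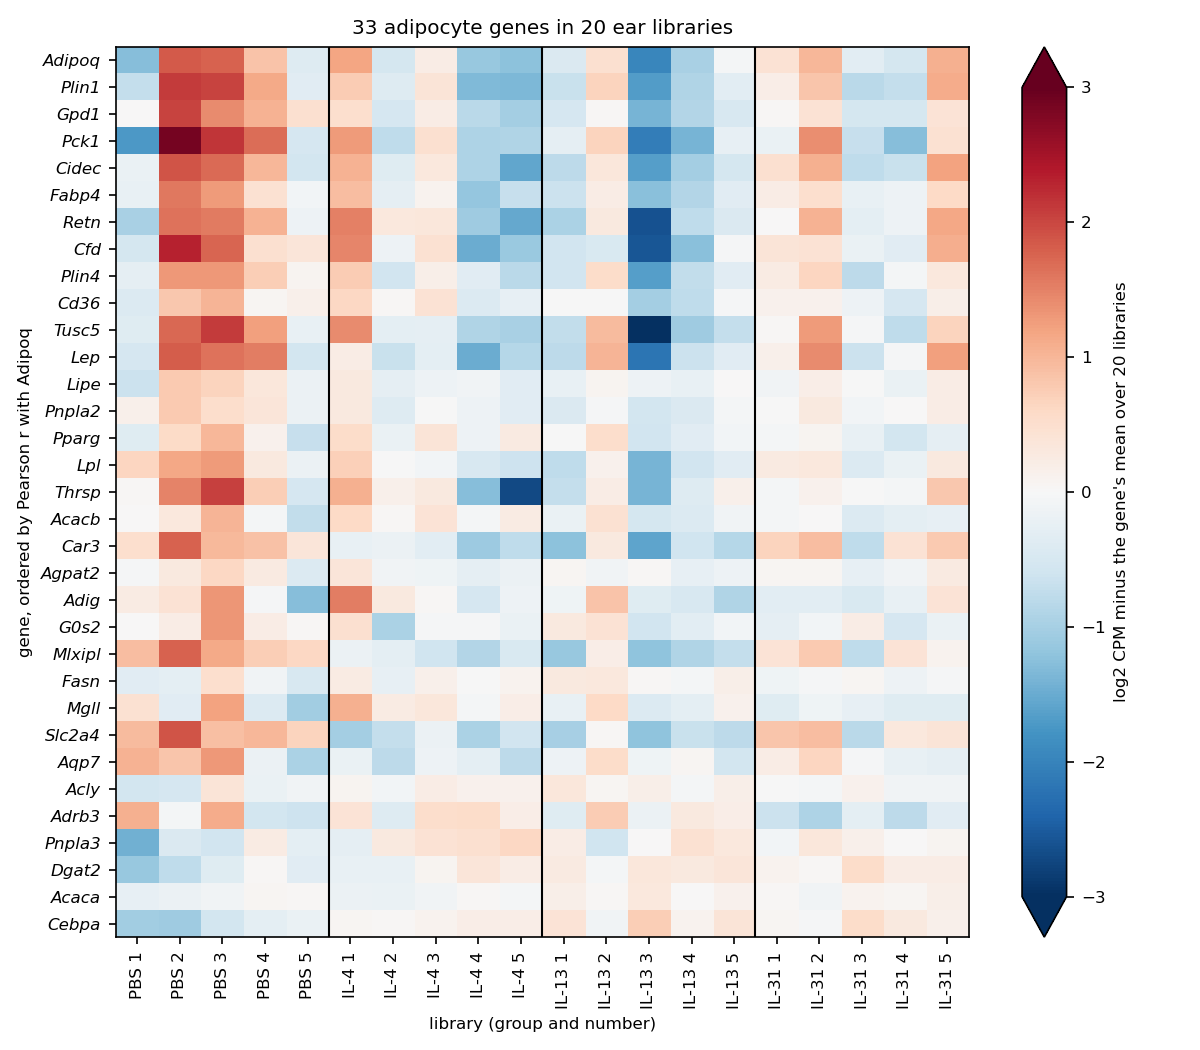
Each cell is a member's log2 CPM in 1 library minus its mean over all 20 libraries (colour), with the 33 members in rows, ordered by their Pearson r with Adipoq, and the 20 libraries in columns by group. The upper rows, from Plin1 downward, are high together in PBS libraries 2 and 3 and low together in IL-13 library 3, and Cebpa, Acaca and Dgat2 in the last rows do not share this pattern.

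After IL-4, the question was which adipocyte transcripts of the ear differ from those after PBS. Slc2a4 (the insulin-responsive glucose transporter GLUT4), Mlxipl (the carbohydrate-responsive factor ChREBP), Car3 (carbonic anhydrase 3) and Gpd1 (glycerol-3-phosphate dehydrogenase) fell by 2.48-fold to 3.43-fold. Cebpa, Pnpla3 and Dgat2 rose by 1.47-fold to 1.75-fold. The genes most restricted to fat, Adipoq, Plin1, Cidec, Lep and Retn, had lower means in IL-4 but did not pass the test. In counts, 3 of 33 members rose (9.09%) and 4 fell (12.1%), while 26 were not called. Over all 16461 genes tested, 8.22% rose and 9.63% fell (17.8% in either direction), so the members' shares are near the background. With quantile normalization the split over all genes turned, from 1353 higher and 1585 lower to 1761 higher and 1200 lower, while the members stayed at 3 higher and 4 lower. The median log2 fold change was -0.71 over the 33 members and -0.02 over all genes tested, and 23 members had a negative fold change.

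IL-13 gave the most calls. Against PBS, 10 of 33 members fell (30.3%; background 9.8%) and 2 rose (6.06%; background 9.94%; 19.7% of all genes in either direction). The 10 that fell were Slc2a4, Mlxipl, Car3, Gpd1, Lpl, Pnpla2, Cfd, Fabp4, Plin4 and Tusc5, by 1.54-fold to 3.60-fold. Cebpa and Dgat2 rose, by 1.91-fold and 1.68-fold. Over all genes 1637 rose and 1613 fell, against 1910 and 1199 with quantile normalization, which gave 3 higher and 9 lower members. The median log2 fold change was -0.71 over the members and -0.03 over all genes, and 27 members had a negative fold change. After group means were removed, 16 members had r above 0.8 with Adipoq (below). The members are therefore not independent of each other, and the list was not tested as a set.

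With IL-31, Cebpa and Dgat2 rose by 1.78-fold and 1.66-fold (2 of 33 members, 6.06%; background 5.18%) and 0 members fell (background 1.2%; 6.38% of all genes in either direction). At an unadjusted limma p under 0.05, 7 of 33 members differed, as did 3921 of the 16461 genes tested. The median log2 fold change was -0.36 over the members and -0.04 over all genes, and 27 members had a negative fold change. The 3 comparisons share the same 5 PBS libraries, so their directions are not independent of each other.

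How far these counts rest on single libraries differed between cytokines. Without PBS libraries 1, 2 and 3, only 2 members were called for IL-4 (Slc2a4 lower and Mgll higher), 1 for IL-13 (Slc2a4 lower) and 0 for IL-31. Calls over all genes fell as well in that fit, to 7.44%, 2.33% and 0%. For IL-4 the count of 7 was 4 without PBS library 2 or IL-4 library 5, and 11 without PBS library 5 or IL-4 library 1. Of all genes, those fits called 11.5%, 11.9%, 21.6% and 17.8% in that order, against 17.8% with all libraries. The IL-13 count of 12 was 8 without PBS library 2, IL-13 library 3 or IL-13 library 4, 18 without PBS library 1 and 19 without IL-13 library 2. The shares over all genes were 12.2%, 12.3%, 14.8%, 16.4% and 22.3% in that order, against 19.7% with all libraries. For IL-31 the count of 2 was 0 when PBS library 1, 2 or 3 or IL-31 library 3 or 5 was left out, 3 without PBS library 4 and 5 without PBS library 5. All-gene shares, in that order, were 0.452%, 0%, 0.00612%, 0%, 0%, 11.5% and 18.5%, against 6.38% with all libraries.

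**Figure D2:**
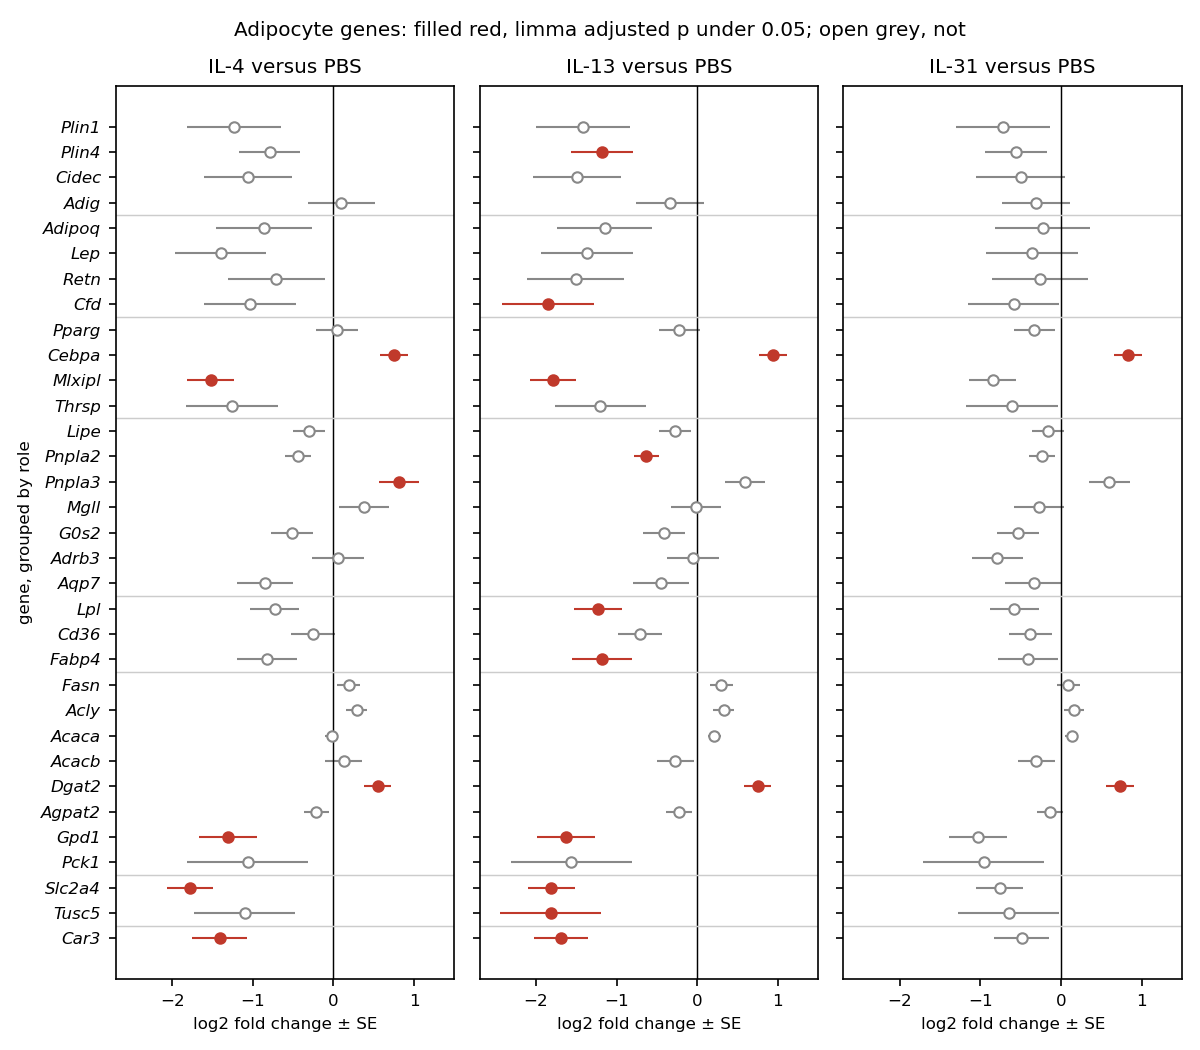
Points are log2 fold changes against PBS with their SE for the 33 members, grouped by role, in 1 panel for each cytokine. Filled red points passed a limma adjusted p under 0.05 (7 members for IL-4, 12 for IL-13 and 2 for IL-31) and open grey points did not.

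Other tissues moved in the same comparisons. All 12 skeletal muscle markers fell in IL-4 and in IL-13, with median log2 fold changes of -3.12 and -3.03, and 0 of 12 were called in IL-31 (median -1.13). Their summed level was 6350 to 19100 CPM in PBS, 405 to 3590 CPM in IL-4, 941 to 3760 CPM in IL-13 and 1860 to 8620 CPM in IL-31. Of the 6 epidermal markers, 3 rose with each cytokine. Without PBS libraries 1 to 3, which had low epidermal sums, 0 of all genes were called in IL-31, so these rises were not called there. The marker lists were not counted again for IL-4 and IL-13, where that fit called 1204 and 377 genes. Of 11 sebaceous gland markers, 3 rose in IL-4, 2 rose and 1 fell in IL-13, and 0 were called in IL-31, with sums of 1040 to 3230 CPM in PBS, 2040 to 3030 in IL-4, 1640 to 2580 in IL-13 and 1550 to 1880 in IL-31. Endothelial markers fell in 4 of 9 cases with IL-4 and 7 of 9 with IL-13, and macrophage markers in 4 of 9 and 3 of 9. Adipocyte progenitor markers fell in 2 of 9 and 3 of 9. Over all genes tested, 8.22% rose and 9.63% fell in IL-4, 9.94% and 9.8% in IL-13, and 5.18% and 1.2% in IL-31. With lists this short, the smaller counts are only a few genes and no list was tested as a set. The part of these shifts in the members' results was not tested beyond the values given beside each result below.

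**Figure D3:**
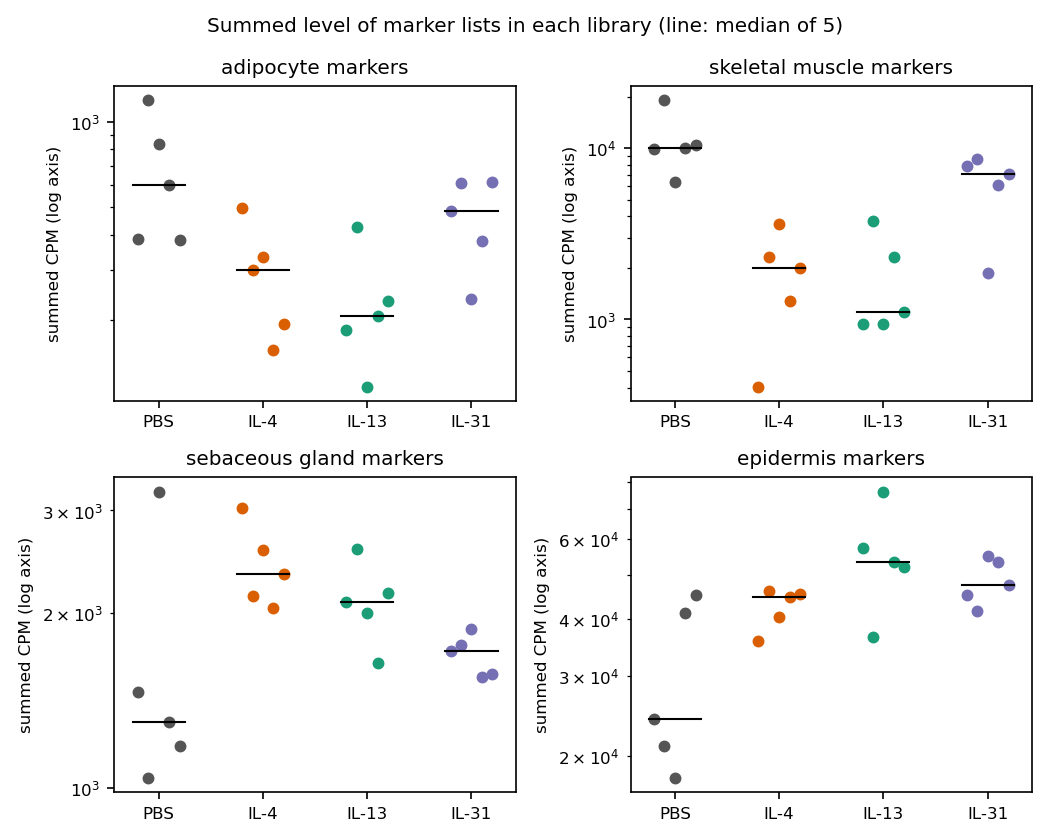
Points are the summed CPM (log axis) of the adipocyte, skeletal muscle, sebaceous gland and epidermis markers in each library, by group, with the group median as a line. Muscle sums of IL-4 (405 to 3590 CPM) and IL-13 (941 to 3760 CPM) lie below every PBS library, adipocyte sums overlap between groups, and PBS libraries 1 to 3 hold the 3 lowest epidermis sums.

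Among the lipid droplet coat genes, Plin1 (ENSMUSG00000030546, chromosome 7, 79720218 to 79732903, GRCm38), the perilipin that guards the droplet of fat cells, stood at 3.12, 5.92, 5.86, 4.96 and 3.49 log2 CPM in PBS libraries 1 to 5. It stood at 4.58, 3.43, 4.21, 2.50 and 2.47 in IL-4, 3.16, 4.49, 2.16, 2.93 and 3.50 in IL-13, and 4.02, 4.65, 3.02, 3.12 and 4.93 in IL-31. PBS libraries 2, 3 and 4 exceeded every cytokine library, but PBS libraries 1 and 5 lay within the range of each cytokine group. The log2 fold change was -1.23 ± 0.58 in IL-4 (SE, limma adjusted p = 0.15), -1.42 ± 0.58 in IL-13 (adjusted p = 0.0899) and -0.72 ± 0.58 in IL-31 (adjusted p = 0.449), none of which passed. For IL-13 it passed without PBS library 1, PBS library 5 or IL-13 library 2.

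Plin4, a perilipin of nascent droplets that muscle also carries, was at 5.66, 7.21, 7.21, 6.66 and 6.01 log2 CPM in PBS, and at 5.34, 6.47, 4.27, 5.17 and 5.59 in IL-13. IL-4 libraries held 6.69, 5.35, 6.09, 5.57 and 5.11 and IL-31 libraries 6.17, 6.57, 5.13, 5.87 and 6.24. Of the IL-13 libraries, only library 2 exceeded the lowest PBS library, and Plin4 fell in IL-13, with a log2 fold change of -1.18 ± 0.38 (adjusted p = 0.0359). That call was lost when PBS library 2, 3 or 4 or IL-13 library 1, 3, 4 or 5 was left out, and without PBS libraries 1 to 3 together the value was -0.97 (adjusted p = 0.278). Exons of Plin4 overlap those of Hdgfl2 on the opposite strand, and the strand setting of the counting is not given in the sources used here.

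Cidec, which fuses lipid droplets into the single droplet of a white adipocyte, was at 3.59, 5.68, 5.48, 4.79 and 3.23 log2 CPM in PBS and at 3.01, 4.14, 2.13, 2.76 and 3.27 in IL-13. In IL-4 it was at 4.84, 3.43, 4.10, 2.86 and 2.24, and in IL-31 at 4.28, 4.85, 3.02, 3.13 and 4.99. The groups overlapped in all 3 comparisons, with log2 fold changes of -1.06 for IL-4, -1.49 for IL-13 and -0.50 for IL-31 (adjusted p = 0.194, 0.0608 and 0.585). Cidec passed in IL-13 without PBS library 1, PBS library 5 or IL-13 library 2. Adig, a small adipogenin of the droplet surface, had medians of 2.44, 2.21, 1.82 and 1.88 log2 CPM in PBS and the 3 cytokines in the same order, with 0 calls.

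Of the secreted products, Adipoq (ENSMUSG00000022878, chromosome 16, 23146536 to 23158028, GRCm38) was at 2.58, 5.70, 5.64, 4.71 and 3.49 log2 CPM in PBS libraries 1 to 5. It was at 5.04, 3.34, 4.09, 2.74 and 2.63 in IL-4, at 3.43, 4.34, 1.92, 2.89 and 3.80 in IL-13, and at 4.30, 4.85, 3.55, 3.34 and 4.93 in IL-31. The PBS libraries alone spanned 3.12 log2 units, and no cytokine group left that span except IL-13 library 3. The log2 fold changes were -0.86 ± 0.59 for IL-4 (adjusted p = 0.345; 95% interval -2.09 to 0.38), -1.15 ± 0.59 for IL-13 (0.179; -2.38 to 0.08) and -0.23 ± 0.59 for IL-31 (0.832; -1.46 to 1.00). The intervals for IL-4 and IL-13 leave room for falls of more than 4-fold, so a missing call does not show an unchanged level.

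Cfd, the complement factor adipsin, was the secreted gene that passed. It was at 3.83, 6.67, 6.11, 4.84 and 4.72 log2 CPM in PBS and at 3.79, 3.91, 1.79, 3.10 and 4.32 in IL-13. IL-4 libraries held 5.83, 4.21, 4.83, 2.87 and 3.24 and IL-31 libraries 4.75, 4.79, 4.16, 4.03 and 5.46. In IL-13, 3 of 5 libraries lay below the lowest PBS library, and Cfd fell in IL-13, with a log2 fold change of -1.85 ± 0.57 (adjusted p = 0.0295). The call was lost without PBS library 2 or 3 or IL-13 library 3 or 4, and the value without PBS libraries 1 to 3 was -1.39 (adjusted p = 0.269).

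Lep had medians of 4.03 log2 CPM in PBS, 1.82 in IL-4, 1.86 in IL-13 and 2.64 in IL-31. Its log2 fold changes were -1.40 (adjusted p = 0.0949), -1.37 (0.0953) and -0.36 (0.716) for the 3 cytokines in that order. Retn, which encodes the adipokine resistin, had medians of 3.66, 2.93, 1.86 and 2.64 and a log2 fold change of -1.51 in IL-13 (adjusted p = 0.0849). Lep passed without PBS library 5 in both IL-4 and IL-13 and without IL-13 library 2 in IL-13, and Retn passed in IL-13 without PBS library 1 or IL-13 library 2.

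Of the 4 genes of transcription, Cebpa rose and Mlxipl fell in IL-4 and IL-13, and Pparg and Thrsp were not called. Pparg (ENSMUSG00000000440, chromosome 6, 115360951 to 115490399, GRCm38), the master regulator of fat cell differentiation, was at 3.69, 4.64, 5.06, 4.19 and 3.38 log2 CPM in PBS and at 4.61, 3.86, 4.44, 3.91 and 4.34 in IL-4. It was at 4.05, 4.58, 3.49, 3.73 and 3.99 in IL-13 and at 4.01, 4.14, 3.84, 3.50 and 3.80 in IL-31. All 15 cytokine libraries lay within the PBS range, and the log2 fold changes were 0.04, -0.22 and -0.33 (adjusted p = 0.934, 0.585 and 0.437; 95% intervals -0.50 to 0.59, -0.77 to 0.32 and -0.88 to 0.21).

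Cebpa (chromosome 7, 35119293 to 35121928, GRCm38), whose start is printed above, was higher with all 3 cytokines. It was at 7.13, 7.10, 7.63, 7.88 and 7.97 log2 CPM in PBS, and all 15 cytokine libraries were above the highest of these. The cytokine values were 8.22, 8.21, 8.27, 8.38 and 8.38 in IL-4, 8.58, 8.07, 8.91, 8.28 and 8.56 in IL-13, and 8.24, 8.13, 8.73, 8.46 and 8.33 in IL-31. Groups without overlap in which the cytokine was higher made up 2.64% of all genes tested for IL-4, 2.52% for IL-13 and 2.93% for IL-31 (4.36% in either direction for IL-31). Cebpa rose by 0.75 ± 0.17 in IL-4 (adjusted p = 0.00614), 0.94 ± 0.17 in IL-13 (0.00198) and 0.83 ± 0.17 in IL-31 (0.0193) on the log2 scale.

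PBS libraries 1, 2 and 3, the 3 with low epidermal markers, were also the 3 lowest for Cebpa. Krt10, a keratin of the upper epidermis, was at 11.03, 11.08 and 10.55 log2 CPM in them and at 12.97 to 14.54 in the other 17. Without these 3 libraries the log2 fold change of Cebpa was 0.37 in IL-4 (adjusted p = 0.198), 0.55 in IL-13 (0.0819) and 0.45 in IL-31 (0.634). In IL-31 the call was also lost when PBS library 1, 2 or 3 or IL-31 library 3 or 5 was left out.

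Mlxipl (chromosome 5, 135089890 to 135138382, GRCm38) turns on glycolytic and lipogenic genes when glucose is plentiful. It was at 3.57, 4.42, 3.79, 3.38 and 3.27 log2 CPM in PBS and at 2.48, 2.35, 2.06, 1.76 and 2.19 in IL-4. IL-13 libraries held 1.52, 2.85, 1.43, 1.74 and 1.94 and IL-31 libraries 3.06, 3.43, 1.89, 3.06 and 2.76. Every IL-4 and IL-13 library was below every PBS library, a separation found for 5.89% and 5.01% of all genes tested in that direction. Mlxipl fell by 1.52 ± 0.29 in IL-4 (adjusted p = 0.00245) and by 1.79 ± 0.29 in IL-13 (0.00142) on the log2 scale, and its log2 fold change in IL-31 was -0.85 ± 0.29 (0.0849). Among fits with 1 library left out, the IL-31 value passed without PBS library 5. Without PBS libraries 1 to 3 the values were -1.16 in IL-4 (adjusted p = 0.0667) and -1.43 in IL-13 (0.0503).

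Thrsp, a lipogenic nuclear protein, had log2 fold changes of -1.26, -1.20 and -0.61 in IL-4, IL-13 and IL-31 (adjusted p = 0.135, 0.147 and 0.516). Its lowest library was in IL-4 (-0.63 log2 CPM) and its highest in PBS (4.14). It passed in IL-4 without IL-4 library 1.

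For fatty acid uptake and binding, Lpl, the lipase that frees fatty acids from circulating lipoproteins, was at 7.88, 8.39, 8.52, 7.53 and 7.07 log2 CPM in PBS and at 6.48, 7.36, 5.85, 6.66 and 6.89 in IL-13. IL-4 libraries held 7.96, 7.24, 7.15, 6.76 and 6.63 and IL-31 libraries 7.52, 7.55, 6.82, 7.04 and 7.53. In IL-13, 4 of 5 libraries were below the lowest PBS library, and Lpl fell in IL-13, with a log2 fold change of -1.23 ± 0.30 (adjusted p = 0.00792). The call was kept without any single library, but without PBS libraries 1 to 3 the value was -0.65 (adjusted p = 0.324). In IL-4 the log2 fold change was -0.73 (adjusted p = 0.0938), which passed without PBS library 5 or IL-4 library 1.

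Fabp4 (ENSMUSG00000062515, chromosome 3, 10204088 to 10208576, GRCm38), the fatty acid carrier of the adipocyte cytosol, was at 6.21, 8.01, 7.70, 6.88 and 6.35 log2 CPM in PBS. It was at 7.34, 6.16, 6.52, 5.27 and 5.74 in IL-4, at 5.79, 6.65, 5.16, 5.55 and 6.09 in IL-13, and at 6.64, 6.93, 6.20, 6.28 and 7.03 in IL-31. IL-13 library 2 was the only IL-13 library above the lowest PBS library. Fabp4 fell in IL-13, with a log2 fold change of -1.18 ± 0.37 (adjusted p = 0.0321), and the call was lost without PBS library 2 or 3 or IL-13 library 1, 3 or 4. Without PBS libraries 1 to 3 its log2 fold change in IL-13 was -0.77 (adjusted p = 0.347). In IL-4 the value of -0.82 (adjusted p = 0.137) passed without IL-4 library 1. Fabp4 is also expressed by capillary endothelium, whose 9 markers summed to 145 to 207 CPM in PBS and 76.2 to 122 CPM in IL-13.

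Cd36, the fatty acid translocase, was at 5.69, 6.91, 7.12, 6.16 and 6.25 log2 CPM in PBS and at 6.09, 6.07, 5.07, 5.32 and 6.05 in IL-13. IL-4 libraries held 6.70, 6.12, 6.53, 5.67 and 5.85 and IL-31 libraries 6.21, 6.22, 5.93, 5.58 and 6.27. The groups overlapped, and the log2 fold changes of -0.25, -0.71 and -0.38 in IL-4, IL-13 and IL-31 did not pass (adjusted p = 0.56, 0.0666 and 0.38), except in IL-13 without PBS library 1 or IL-13 library 2.

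The synthesis genes split. Gpd1 (chromosome 15, 99717515 to 99725005, GRCm38) supplies the glycerol backbone of triglyceride and was at 4.51, 6.54, 5.93, 5.55 and 4.99 log2 CPM in PBS. It was at 5.02, 4.00, 4.74, 3.70 and 3.49 in IL-4, at 4.00, 4.55, 3.12, 3.64 and 4.02 in IL-13, and at 4.55, 4.94, 3.97, 3.99 and 4.93 in IL-31. Only IL-13 library 2 reached the lowest PBS value among the IL-13 libraries. Gpd1 fell by 1.31 ± 0.36 in IL-4 (adjusted p = 0.0172) and by 1.63 ± 0.36 in IL-13 (0.00485) on the log2 scale. The IL-4 call was lost without PBS library 2 or IL-4 library 5, and without PBS libraries 1 to 3 the values were -1.08 in IL-4 (adjusted p = 0.113) and -1.40 in IL-13 (0.0667). In IL-31 the log2 fold change was -1.03 (adjusted p = 0.0917), which passed without PBS library 5.

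Dgat2, which adds the last fatty acid to triglyceride, went the other way. It was at 7.05, 7.42, 7.82, 8.22 and 7.83 log2 CPM in PBS and at 7.95, 7.95, 8.27, 8.53 and 8.41 in IL-4. IL-13 libraries held 8.45, 8.13, 8.52, 8.46 and 8.54 and IL-31 libraries 8.28, 8.21, 8.72, 8.39 and 8.40. PBS libraries 1 and 2 were the 2 lowest of all 20. Dgat2 rose by 0.55 ± 0.17 in IL-4 (adjusted p = 0.0304), 0.75 ± 0.17 in IL-13 (0.00584) and 0.73 ± 0.17 in IL-31 (0.0227) on the log2 scale.

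Without PBS libraries 1 to 3 the log2 fold changes of Dgat2 were 0.20, 0.39 and 0.37 (adjusted p = 0.495, 0.209 and 0.656). Single libraries also ended its calls: in IL-4 PBS library 1 or 2 or IL-4 library 3, 4 or 5, and in IL-31 PBS library 1, 2 or 3 or IL-31 library 3 or 5.

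Acaca, which makes malonyl-CoA for fatty acid synthesis, had the narrowest PBS range of all members, 0.29 log2 units. In PBS it was at 6.10, 6.17, 6.24, 6.39 and 6.38 log2 CPM, and in IL-13 at 6.50, 6.37, 6.66, 6.35 and 6.46. IL-4 libraries held 6.15, 6.14, 6.23, 6.36 and 6.28 and IL-31 libraries 6.36, 6.23, 6.44, 6.39 and 6.51. The log2 fold changes were -0.02, 0.21 and 0.13 (adjusted p = 0.874, 0.0625 and 0.308), and among fits with 1 library left out the IL-13 value passed without PBS library 4, PBS library 5 or IL-13 library 2.

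Fasn, Acly and Acacb, the other enzymes of fatty acid synthesis, and Agpat2, an acyltransferase whose loss causes lipodystrophy, were not called in any comparison with PBS. Their log2 fold changes lay between -0.31 (Acacb in IL-31) and 0.33 (Acly in IL-13). Fasn and Acly passed in IL-4 and in IL-13 without PBS library 3. Pck1, which makes glycerol phosphate from non-sugar precursors in fat, had the widest PBS range of all members, 0.66 to 5.25 log2 CPM, and its log2 fold change of -1.56 ± 0.75 in IL-13 did not pass (adjusted p = 0.152) except without PBS library 1.

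Among the lipolysis genes, Pnpla2 (ATGL), which takes the first fatty acid off triglyceride, was at 6.40, 7.02, 6.78, 6.60 and 6.06 log2 CPM in PBS and at 5.82, 6.21, 5.69, 5.82 and 6.18 in IL-13. IL-4 libraries held 6.55, 5.86, 6.24, 6.10 and 5.91 and IL-31 libraries 6.24, 6.55, 6.16, 6.26 and 6.47. Pnpla2 fell in IL-13, with a log2 fold change of -0.63 ± 0.16 (adjusted p = 0.0108), with 3 of 5 libraries below the lowest PBS library. The call was kept without any single library, and the value was -0.38 (adjusted p = 0.274) without PBS libraries 1 to 3. In IL-4 the value of -0.44 (adjusted p = 0.0647) passed without PBS library 5 or IL-4 library 1.

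Pnpla3, a relative of Pnpla2 that is induced in lipogenic tissue, was at 2.00, 3.01, 2.87, 3.69 and 3.14 log2 CPM in PBS and at 3.18, 3.73, 3.87, 3.92 and 4.06 in IL-4. IL-13 libraries held 3.67, 2.85, 3.46, 3.91 and 3.76 and IL-31 libraries 3.35, 3.79, 3.60, 3.45 and 3.53. In IL-4, 4 of 5 libraries exceeded the highest PBS library, and Pnpla3 rose in IL-4, with a log2 fold change of 0.81 ± 0.25 (adjusted p = 0.0289). That call was lost when PBS library 1, 2 or 3 or IL-4 library 3, 4 or 5 was left out, and the value without PBS libraries 1 to 3 was 0.34 (adjusted p = 0.444). In IL-13 (0.59, adjusted p = 0.101) it passed with quantile normalization (0.83, adjusted p = 0.0335), without PBS library 4 or without IL-13 library 2, and in IL-31 (0.60, 0.145) without PBS library 4. Its exons overlap those of the predicted gene Gm49513 on the same strand, so reads may be split between them.

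Lipe (hormone-sensitive lipase), G0s2 (an inhibitor of ATGL), Adrb3 (the adrenergic receptor that triggers lipolysis in fat), Aqp7 and Mgll were not called in any comparison with PBS. Their log2 fold changes lay between -0.85 (Aqp7 in IL-4) and 0.38 (Mgll in IL-4). Mgll spanned 8.44 to 10.69 log2 CPM in PBS, and without PBS libraries 1 to 3 its log2 fold change in IL-4 was 1.08 (adjusted p = 0.0272). Without PBS library 5, Aqp7 passed in IL-4 and Adrb3 in IL-31, and without PBS library 1 Lipe passed in IL-4 and IL-13.

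For glucose uptake, Slc2a4 (ENSMUSG00000018566, chromosome 11, 69942539 to 69948188, GRCm38) was at 5.48, 6.42, 5.43, 5.53 and 5.20 log2 CPM in PBS. It was at 3.50, 3.81, 4.34, 3.57 and 3.94 in IL-4, at 3.54, 4.55, 3.32, 3.85 and 3.74 in IL-13, and at 5.36, 5.45, 3.72, 4.84 and 4.90 in IL-31. Every IL-4 and IL-13 library was below every PBS library, as for 5.89% and 5.01% of all genes tested, and IL-31 overlapped PBS. Of the 33 members, 3 separated in this direction in IL-4 and 3 in IL-13. Slc2a4 fell 3.43-fold in IL-4 (log2 fold change -1.78 ± 0.29, adjusted p = 0.00132) and 3.51-fold in IL-13 (-1.81 ± 0.29, 0.00142). It was the member called in both comparisons also without PBS libraries 1 to 3, at -1.53 (adjusted p = 0.0265) and -1.56 (0.0394).

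Muscle is the other large source of Slc2a4, and in IL-31 the muscle sum was lowest in library 3, as was Slc2a4 itself. The creatine kinase gene Ckm, a defining muscle transcript, was at 8.48 to 10.24 log2 CPM in PBS, 3.80 to 7.25 in IL-4, 5.36 to 7.75 in IL-13 and 6.67 to 8.74 in IL-31. Tusc5 (Trarg1), which helps GLUT4 reach the surface of fat cells, was at 1.79, 3.87, 4.25, 3.38 and 1.94 log2 CPM in PBS and at 1.41, 3.10, -0.89, 1.08 and 1.45 in IL-13. IL-4 libraries held 3.57, 1.86, 1.88, 1.25 and 1.19 and IL-31 libraries 2.18, 3.43, 2.13, 1.40 and 2.83. Tusc5 fell in IL-13, with a log2 fold change of -1.82 ± 0.63 (adjusted p = 0.048), with 4 of 5 libraries below the lowest PBS library. It lost the call when PBS library 2, 3 or 4 or IL-13 library 1, 3, 4 or 5 was left out, and without PBS libraries 1 to 3 the value was -1.43 (adjusted p = 0.348). The call also ended with log2(CPM + 1) (-1.43, adjusted p = 0.0512), with quantile normalization (-1.59, 0.0793) and without a variance trend (0.0604).

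Car3 (chromosome 3, 14863512 to 14872523, GRCm38), abundant in fat and in slow muscle fibres, was at 8.02, 9.28, 8.50, 8.40 and 7.87 log2 CPM in PBS and at 7.30, 7.35, 7.19, 6.43 and 6.75 in IL-4. IL-13 libraries held 6.29, 7.81, 5.94, 6.93 and 6.66 and IL-31 libraries 8.18, 8.44, 6.76, 7.94 and 8.31. No IL-4 or IL-13 library reached the lowest PBS library, a separation found for 5.89% and 5.01% of all genes tested in that direction. Car3 fell by 1.41 ± 0.34 in IL-4 (adjusted p = 0.00874) and by 1.69 ± 0.34 in IL-13 (0.003) on the log2 scale, and its log2 fold change in IL-31 was -0.49 (0.38). The values without PBS libraries 1 to 3 were -1.13 in IL-4 (adjusted p = 0.12) and -1.41 in IL-13 (0.0801).

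**Figure D4:**
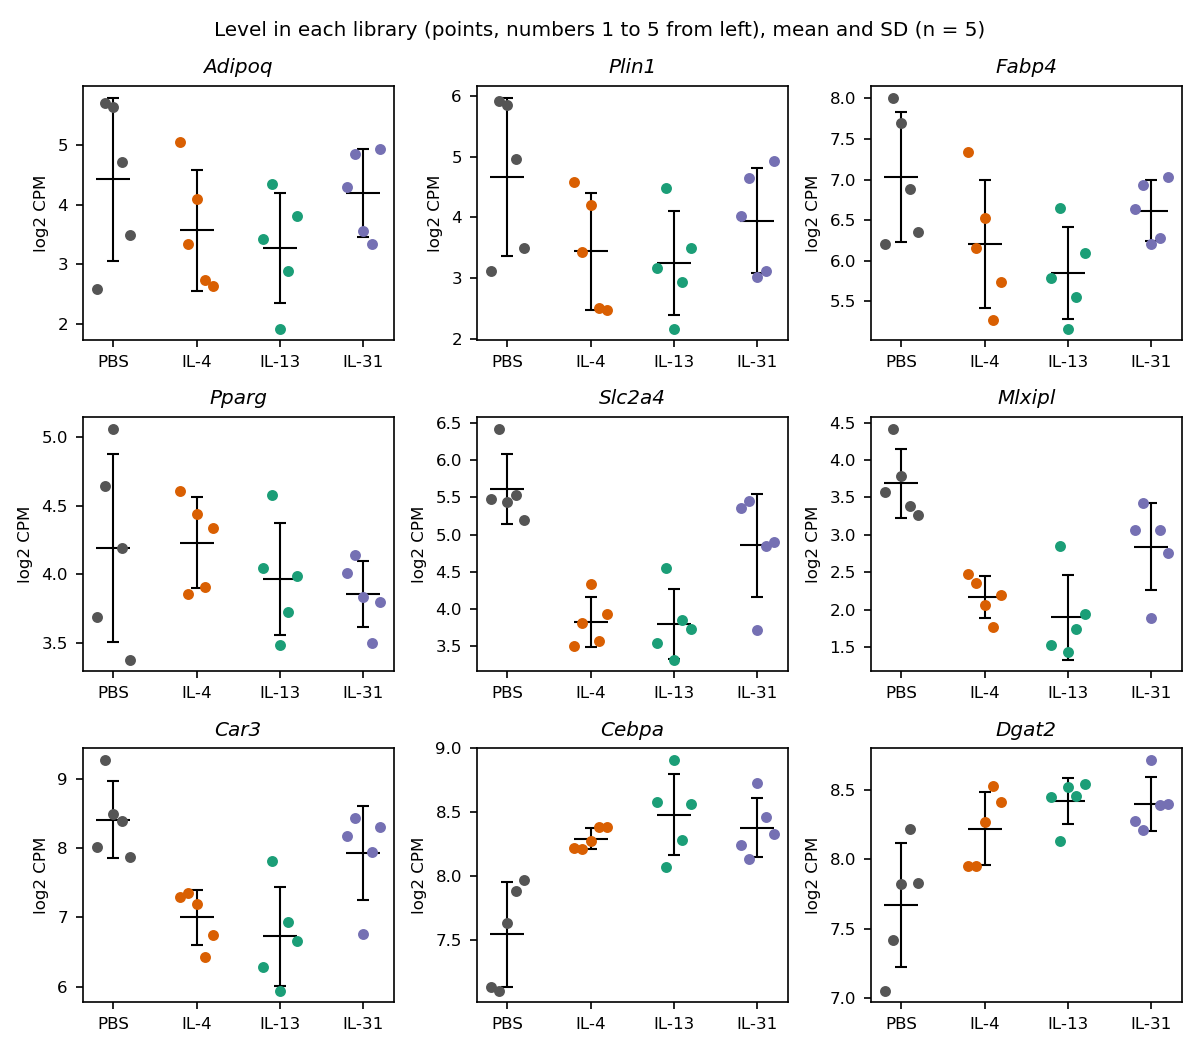
Points are log2 CPM in each library for 9 members, with libraries 1 to 5 of a group from left to right, and lines give the group mean and SD (n = 5). Slc2a4, Mlxipl and Car3 lie below every PBS library in IL-4 and IL-13, Cebpa lies above every PBS library with all 3 cytokines, and Adipoq, Plin1, Fabp4 and Pparg overlap PBS. Over all genes tested, 5.89% in IL-4 and 5.01% in IL-13 lie below PBS without overlap. Above PBS without overlap lie 2.64% in IL-4, 2.52% in IL-13 and 2.93% in IL-31.

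Between cytokines, limma called 0 members and 0 of the 16461 genes (0%) in each of the 3 comparisons. The smallest member adjusted p was 0.997 for IL-4 with IL-13, 0.175 for IL-4 with IL-31 and 0.215 for IL-13 with IL-31. At an unadjusted p under 0.05, 1, 5 and 7 members differed, as did 664, 1743 and 1200 of all genes. Slc2a4 was lower in IL-4 than in IL-31 by 1.02 ± 0.29 (adjusted p = 0.175) and lower in IL-13 than in IL-31 by 1.05 ± 0.29 (0.215) on the log2 scale, with 95% intervals of -1.63 to -0.41 and -1.66 to -0.44. Without IL-31 library 3, the library low in muscle, Slc2a4 passed in both (adjusted p = 0.0211 and 0.0161), and Mlxipl (0.0287) and Car3 (0.0212) passed for IL-13 with IL-31. That library was the lowest IL-31 library for Slc2a4 (3.72 log2 CPM), Mlxipl (1.89) and Car3 (6.76). Leaving it out therefore raises the IL-31 means of these genes. The same fit called 1.85% and 1.81% of all genes, and no other single library left out gave a call in either comparison. Only Mgll separated without overlap, higher in IL-4 than in IL-31 (2.14% of all genes did so in that direction). Between IL-13 and IL-31, 0 members separated (0.571% of all genes higher and 0.668% lower).

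The members were next compared with Adipoq across the 20 libraries, after the group mean was taken from each value, to describe how they vary apart from treatment. Pearson's r and Spearman's rho were computed for 32 members and 7 reference genes of other tissues, 39 relations in all, with permutation within groups (two-sided) and Benjamini-Hochberg adjustment. With r, 22 members passed, all with a positive sign, and 16 had r above 0.8. Plin1 followed Adipoq most closely (r = 0.98, rho = 0.98, permutation p = 1e-05 for each, the smallest 100000 resamples can give, adjusted p = 3.5e-05 for r). Gpd1 (r = 0.97), Pck1 (0.96), Cidec, Fabp4 and Retn (0.95 each), Cfd and Plin4 (0.93), Cd36 and Tusc5 (0.92) and Lep (0.91) came next.

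Lipe (r = 0.86), Pnpla2 (0.84), Pparg (0.83), Lpl and Thrsp (0.81) completed the 16. PBS library 1 and IL-13 library 3 were farthest from the median of Adipoq after group means were removed. Without them r was 0.98 for Plin1, 0.92 for Lpl and 0.79 for Pparg. In that setting 24 members passed, counted with either sign of r. Acacb, Car3, Agpat2, Adig, G0s2 and Mlxipl passed with r of 0.59 to 0.72. All these transcripts share the library they were measured in, and library makeup is part of what r describes.

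The members that rose were not among those that followed Adipoq. For Cebpa r was -0.35 (rho = -0.42, permutation p = 0.228 and 0.113, adjusted p = 0.3 and 0.15), for Dgat2 -0.09 (rho = -0.28, p = 0.777 and 0.318, adjusted 0.84 and 0.38) and for Pnpla3 0.02 (rho = -0.09, p = 0.958 and 0.734, adjusted 0.96 and 0.8). Without the 2 outlying libraries r was -0.61, -0.57 and -0.52. Of the reference genes, Awat1 of sebaceous glands (r = 0.49), Pecam1 of endothelium (0.43), Col2a1 of cartilage (0.11), Ckm of muscle (0.05) and Adgre1 of macrophages (-0.05) did not pass. Over all 20 libraries Krt10 had r = -0.42 and rho = -0.60 (permutation p = 0.207 and 0.0257, adjusted p = 0.28 and 0.044). S100a8 had r = -0.47 and rho = -0.43 (permutation p = 0.0606 and 0.0875, adjusted p = 0.095 and 0.14). Both genes fell into separate clusters of libraries, which these values mix. Their relations to Adipoq were therefore also computed within clusters, a family of 3 added after the data were seen. Over the 17 libraries outside PBS libraries 1 to 3, Krt10 was lower where Adipoq was higher (r = -0.79, rho = -0.82, permutation p = 0.00011 and 0.00017, adjusted p = 0.00033 and 0.00051). Without IL-13 library 3 and IL-4 library 1, the farthest of these from the median of Adipoq after group means were removed, r was -0.61. S100a8 of neutrophils did not pass over its 11 lower libraries (r = 0.47, rho = 0.56, exact permutation p = 0.153 and 0.0625, adjusted p = 0.23 and 0.094) or over 8 of its 9 upper ones, the ninth being alone in its group (r = 0.35, rho = 0.45, exact permutation p = 0.306 and 0.278, adjusted p = 0.31 and 0.28). Its r over the lower libraries was 0.67 without IL-4 libraries 1 and 5. Over the upper libraries its r changed sign, to -0.34, without PBS library 3 and IL-13 library 1. The part of epidermal content in the relations among the members was not tested.

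**Figure D5:**
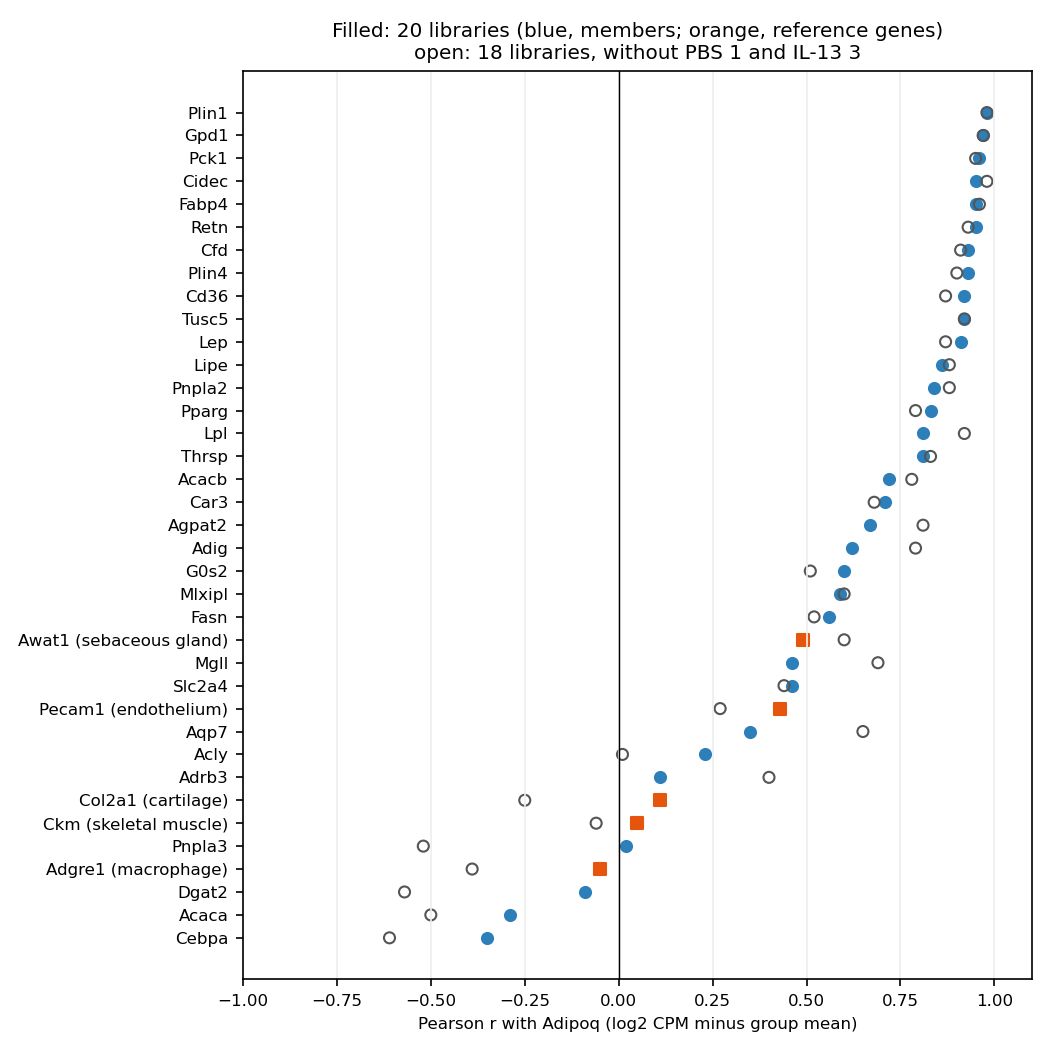
Filled symbols are Pearson r with Adipoq over 20 libraries after removal of group means (blue circles, members; orange squares, reference genes of other tissues), and open circles are r over 18 libraries without PBS library 1 and IL-13 library 3. From Plin1 (0.98) to Thrsp (0.81), 16 members lie above 0.8, while Ckm, Adgre1, Pnpla3 and Dgat2 lie near 0. Krt10 and S100a8 are not drawn.

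Slc2a4 stood apart from the fat-restricted members. Its r with Adipoq was 0.46 (rho = 0.40, permutation p = 0.0439 and 0.105, adjusted p = 0.071 and 0.15). With Ckm, a second family of 33 relations added after the first was seen, Slc2a4 had r = 0.79 and rho = 0.91 (permutation p = 1e-05 for each, adjusted p = 0.00033). IL-4 library 1 and IL-13 library 2 were farthest from the median of Ckm after group means were removed. Without them r of Slc2a4 was 0.84. Slc2a4 was the 1 member of 33 that passed with Ckm. Car3 (r = 0.57, adjusted p = 0.13) and Mlxipl (r = 0.49, adjusted p = 0.24) followed, and Adipoq itself had r = 0.05. The part of muscle in the falls of Slc2a4, Car3 and Mlxipl was not tested.

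A further 50 genes of adipocytes and lipid metabolism that are not members were counted in the same fit. In IL-4, 6 rose (background 8.22%) and 9 fell (background 9.63%), with a median log2 fold change of -0.09. Gpihbp1, the endothelial anchor of Lpl, fell by 1.64 ± 0.31 (adjusted p = 0.00222), Nnmt by 1.20 ± 0.25 (0.00388) and Lpin1, the phosphatidate phosphatase of triglyceride synthesis, by 0.81 ± 0.18 (0.00508) on the log2 scale. Me1, which makes NADPH for lipogenesis, rose by 0.69 ± 0.14 (0.00298), Rxra, the partner of Pparg, by 0.50 ± 0.11 (0.00538) and the adiponectin receptor Adipor2 by 0.37 ± 0.09 (0.0101). Without PBS libraries 1 to 3, Gpihbp1 (-1.70, adjusted p = 0.0252) and Me1 (0.73, 0.00528) kept their calls, while Nnmt (-1.14, 0.0536), Lpin1 (-0.63, 0.108), Rxra (0.24, 0.2) and Adipor2 (0.30, 0.0863) lost them.

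In IL-13, 8 of the 50 rose (background 9.94%) and 12 fell (background 9.8%), with a median of -0.28. Ppargc1a, a coactivator of mitochondrial genes in brown fat and muscle, fell by 1.80 ± 0.30 (adjusted p = 0.00163), with Lpin1 (-1.01, 0.00187) and Nnmt (-1.28, 0.00264). Srebf2, the sterol-responsive factor, rose by 0.59 ± 0.11 (adjusted p = 0.00235), Rxra by 0.56 (0.00267) and Me1 by 0.64 (0.00395). Of these 6, only Me1 passed without PBS libraries 1 to 3 (0.68, adjusted p = 0.0156), and the others were at log2 fold changes of -1.59 (Ppargc1a, adjusted p = 0.0504), -0.83 (Lpin1, 0.0619), -1.22 (Nnmt, 0.0609), 0.33 (Srebf2, 0.0998) and 0.30 (Rxra, 0.142).

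In IL-31, 5 of the 50 rose (background 5.18%) and 1 fell (background 1.2%), with a median of -0.22. Rxra (0.51, adjusted p = 0.0198), Srebf2 (0.48, 0.0223) and Abhd5, the coactivator of Pnpla2 (0.73, 0.0273), rose and Nnmt fell (-0.85, 0.0479). Leaving out PBS libraries 1 to 3, the log2 fold changes were 0.26 for Rxra (adjusted p = 0.656), 0.22 for Srebf2 (0.674), 0.27 for Abhd5 (0.732) and -0.78 for Nnmt (0.654). Rxra also lost its call when PBS library 1, 2 or 3 or IL-31 library 3 or 5 was left out, Srebf2 and Abhd5 lost theirs without any of these or IL-31 library 4, and Nnmt without any library of the 10 except PBS libraries 4 and 5. Nnmt also lost its call with quantile normalization (-0.68, adjusted p = 0.0872) and without a variance trend (0.0516).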

How the data were processed

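RNA from mouse ear pinnae was sequenced in 4 groups of 5 samples (PBS, IL-4, IL-13 and IL-31), taken from the titles. Values are log2 CPM as deposited, in 1 table of 16669 genes. The submitters' processing notes name GRCm38 and edgeR. Of the aligner, read counter, strand setting and annotation, none is given in the sources used here. The lowest value was -2.684 in every library, which corresponds to 0.1556 CPM added before the log. Library sizes were read from the step between low values, of which 79.9 to 86.7% were whole within 0.02 reads, too few to rebuild counts for a count test. The total of linear values was 921691 to 1113112 CPM per library.

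limma 3.58.1 in R 4.3.3 was run on the values as deposited, for genes of log2 CPM at least 0 in at least 5 of 20 libraries (16461 genes), with 4 groups in 1 fit (eBayes with trend), 6 contrasts, two-sided, Benjamini-Hochberg adjusted over all genes tested, threshold 0.05. The fit was tried on simulated data with independent noise for each gene and effects planted in IL-13. That setting held neither relations between genes nor a separate cluster of PBS libraries, so it cannot judge the calls given here. Symbols, coordinates and exon lengths came from GENCODE M21 (GRCm38), which matched 16644 identifiers, and promoters from RefSeq. Exons of 9 members overlap another annotated gene. Besides Plin4 and Pnpla3, these are Cebpa, Mlxipl, Gpd1, Lipe, Mgll, Adrb3 and Agpat2, each with a gene on the opposite strand. Since the strand setting is not given, reads of those genes may be counted in these members. Relations used scipy 1.17.1 and 100000 permutations within groups. Python 3.11.15, numpy 2.4.6, pandas 2.3.3 and matplotlib 3.10.9 were also used.

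The members and lists were chosen with earlier results of these data known. Values of every library are given for Adipoq, Plin1, Fabp4, Pparg and the 16 members of smallest adjusted p against PBS, and the other lipid genes named are the 3 of smallest adjusted p per comparison and direction. The alternatives were log2(CPM + 1), other filters, quantile normalization, no trend, only the 10 libraries compared, a replicate block, each library left out and PBS libraries 1 to 3 left out. Cartilage markers (Matn1 not analysed here) and neutrophil markers had 0 calls against PBS. Median log2 fold changes in IL-4, IL-13 and IL-31 were 0.26, 0.31 and 0.28 for cartilage and -2.55, -1.81 and -1.56 for neutrophils. Neutrophil sums spanned 18.9 to 704 CPM within PBS, so the missing calls do not show an unchanged level. Of the 5 brown fat markers tested, 2, 2 and 0 were called lower in IL-4, IL-13 and IL-31 (background 9.63%, 9.8% and 1.2%).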

Additional observations from a re-analysis of the deposited data

Results flagged for a closer look

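Among 132 sets of 5 values (33 members in 4 groups), 7 held a library far from the other 4, with a gap over 0.71 of the group's range; chance flags about 1 group in 20. In IL-31 library 5, Adig was at 2.60 log2 CPM against 1.74 to 1.97 in the others, and Thrsp at 2.88 against 2.01 to 2.20. G0s2 was at 7.31 in PBS library 3 against 5.99 to 6.21, and Slc2a4 at 6.42 in PBS library 2 against 5.20 to 5.53. Dgat2 was at 8.13 in IL-13 library 2 against 8.45 to 8.54. In IL-4 library 1, Agpat2 was at 4.94 against 4.30 to 4.45 and Tusc5 at 3.57 against 1.19 to 1.88. IL-4 library 1 also held the highest Adipoq level of its group, 5.04 log2 CPM, and the lowest muscle sum, 405 CPM.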

How the results depend on the processing

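Members called against PBS numbered 7 for IL-4, 12 for IL-13 and 2 for IL-31. With only the 10 libraries compared they were 4, 7 and 0, and without PBS libraries 1 to 3 they were 2, 1 and 0. Leaving out 1 library at a time gave 4 to 11, 8 to 19 and 0 to 5 members, 0 to 1 for IL-4 with IL-31 and 0 to 3 for IL-13 with IL-31. Over all genes the counts were 2938, 3250 and 1050. With only the 10 libraries they were 1269, 1134 and 0, and without PBS libraries 1 to 3 they were 1204, 377 and 0. Leaving out 1 library gave 1891 to 3546, 1998 to 4701 and 0 to 3039 genes, 0 to 304 for IL-4 with IL-31 and 0 to 297 for IL-13 with IL-31. For IL-4 with IL-31 the count of 0 was 3 with only the 10 libraries. Fewer libraries enter these fits; the cause of the changes was otherwise not tested. With only the 10 libraries compared, the calls lost were those of Pnpla3, Dgat2 and Gpd1 in IL-4, of Plin4, Cfd, Pnpla2, Fabp4 and Tusc5 in IL-13, and of Cebpa and Dgat2 in IL-31. In relation to Adipoq, 22 members passed with log2(CPM + 1) and 24 without the 2 outlying libraries. These counts take either sign of r and need not hold the same members as the main count.

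The titles give the groups the same replicate numbers. Of 30 same-numbered pairs, 10 had deviations correlated above 0.1 (range -0.24 to 0.49) and 5 correlated best with their own number, so the numbers were not taken to pair the samples. For number 2 all 3 pairs outside IL-4 were above it, with r = 0.49 for IL-13 and PBS, 0.45 for IL-31 and PBS and 0.40 for IL-13 and IL-31, a hint from the data and not from the design. With the replicate block, members called were 7 for IL-4, 13 for IL-13 and 3 for IL-31, and 2 genes passed for IL-4 with IL-31. The block added Acaca in IL-13 (0.21, adjusted p = 0.0497) and, in IL-31, Mlxipl (-0.85, 0.0336) and the further lipid genes Me1 (0.40, 0.0327), Lpin1 (-0.54, 0.0492) and Adipor2 (0.25, 0.0451). Called members kept their sign under every alternative run. Quantile normalization shifted the median log2 fold change of all genes by 0.07, 0.06 and 0.03 in the 3 comparisons with PBS. Depth limits what can be seen below 0.126 to 0.491 CPM, the level of 3 reads.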
